A study of Mus musculus with 12 samples.

Results

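Secreted lipid and hormone carriers were followed in the growing mouse mammary gland through 5 genes: Apod, Ptgds, Lcn2, Mup5 and Ttr. The rule took each probe whose platform gene symbol was one of these names, and it found 4 of the 5 genes, with 1 probe each, among 12913 genes and 17589 probes. No probe carried the symbol Lcn2, so this gene, which encodes a binder of bacterial siderophores, was not analysed here. The genes were chosen by their log ratios on these same 12 arrays. Their ratios and the difference between the structures are therefore given as a description, without a test.

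The tissues came from mammary glands of mice aged 5 weeks that carry a GFP reporter under the beta-actin promoter, which was used to see the glands during microdissection. Terminal end buds, the bulbous growing tips of the ductal tree, were measured on 6 arrays, and mature ducts, the tubes left behind the tips, on another 6. On every array the epithelial RNA was labelled with Cy5 and hybridised against Cy3-labelled RNA of distal stroma, the part of the fat pad that holds no epithelium. Each value is thus a ratio of epithelium to stroma for 1 probe, treated as log2, so that 1 unit is a doubling and 0 means equal signal. No label or header names the base of the logarithm; with natural logarithms each fold would be larger. A ratio gives no level of its own: a gene near background in both tissues also lies near 0. Strain, sex and pooling of animals are not given in the labels, nor is it said that the arrays came from separate animals. The p-values below therefore measure only the spread between arrays, which may be technical.

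Lipocalins are small secreted barrel-shaped proteins that carry hydrophobic molecules. Apolipoprotein D (Apod) binds arachidonic acid, progesterone and other small lipids. Ptgds is both a carrier and the lipocalin-type enzyme that makes prostaglandin D. Mup5 belongs to the major urinary proteins, a cluster of very similar genes whose products bind small volatile ligands and are secreted by liver and by exocrine glands. Transthyretin (Ttr) is not a lipocalin but carries thyroxine and, through retinol binding protein, vitamin A. In bulk tissue such as this, fewer cells of a type and less RNA per cell cannot be told apart.

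The DNA just upstream of Apod and Ptgds is shown. Windows from the RefSeq promoter table of assembly GRCm38.p6 were printed for these 2 of the 4 measured genes, whatever their ratios. No link between the sequences and the ratios was tested. Each window covers the 250 bases before the annotated start, read 5′ to 3′ on the gene's strand. Capitals mark the longest run of a single base, or the first such run. The Apod window lies at chr16:31314809-31315058 and the Ptgds window at chr2:25469750-25469999, both on the minus strand.
Apod: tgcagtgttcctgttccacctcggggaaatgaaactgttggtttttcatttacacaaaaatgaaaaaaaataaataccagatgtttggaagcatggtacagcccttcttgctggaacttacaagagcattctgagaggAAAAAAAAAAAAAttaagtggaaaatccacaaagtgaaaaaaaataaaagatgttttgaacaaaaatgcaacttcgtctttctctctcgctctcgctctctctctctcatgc
Ptgds: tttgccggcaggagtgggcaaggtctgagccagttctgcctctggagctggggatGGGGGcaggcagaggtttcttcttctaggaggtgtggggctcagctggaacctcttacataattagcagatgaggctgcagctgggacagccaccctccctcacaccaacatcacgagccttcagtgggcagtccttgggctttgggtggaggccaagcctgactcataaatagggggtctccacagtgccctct
The Apod window was rich in A and T, with 36.4% G or C and a run of 13 A. Only 6.69% of 27025 promoter windows of the same length had a lower G and C content, against a median of 52% over all windows. The Ptgds window held 58.4% G or C, and 68.2% of windows lay below it. Neither window held, on either strand, AGAACA (in 16.2% of all windows), AGGTCA (13.8%), CACGTG (6.05%), TATAAA (13%) or CCAAT (34.5%), so no overlap between motifs arose. These are short letter matches, and their absence says only that these letters are not in the windows.

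Apod lay below stroma in most terminal end bud samples and far above it in ducts. On the terminal end bud arrays its log2 ratios ran from -0.94 through a median of -0.61 to 0.11, and 5 of the 6 were below 0. On the duct arrays they ran from 2.31 through a median of 2.90 to 4.04. The groups did not overlap, and a gap of 2.20 separated the lowest duct array from the highest terminal end bud array. The share of all probes whose groups did not overlap was not counted, here or for Ttr below. The mean was -0.56 ± 0.39 (SD, n = 6) in terminal end buds and 3.03 ± 0.61 (SD, n = 6) in ducts, an 8.19-fold higher signal in ducts than in stroma. The difference of duct over terminal end bud was 3.60 (SE 0.26), or 12.1-fold. It was the second largest difference in this direction among the 17589 probes, at rank 2. Over all probes 10.4% were called higher in ducts than in terminal end buds and 8.32% lower by limma. The choice of genes used this contrast, so nothing is read from that share here.

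Ttr followed the same order at smaller ratios. Its log2 ratios were between -0.94 and -0.02 with a median of -0.30 in terminal end buds, and between 1.15 and 3.01 with a median of 1.87 in ducts. All 6 terminal end bud arrays were below stroma and all 6 duct arrays above it, with a gap of 1.16 between the groups. The mean was -0.35 ± 0.34 (SD, n = 6) in terminal end buds and 1.92 ± 0.66 (SD, n = 6) in ducts. Ducts exceeded terminal end buds by 2.28 (SE 0.26), or 4.85-fold, at rank 7 of all probes. Without terminal end bud replicate 4, the lowest array, the terminal end bud mean was -0.24.

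Mup5 was also higher in ducts, but its terminal end bud arrays spread more and the groups met. In terminal end buds its log2 ratios ran from -1.68 through a median of -0.67 to 0.09, and in ducts from 0.07 through a median of 0.84 to 2.04. The lowest duct array, replicate 6, fell just below the highest terminal end bud array, replicate 2. The other 5 duct arrays were above all terminal end bud arrays. The means were -0.79 ± 0.69 (SD, n = 6) and 0.91 ± 0.68 (SD, n = 6), a difference of 1.71 (SE 0.34) or 3.26-fold, at rank 34. Among all probes only 1.87% had a larger SD over the terminal end bud arrays and 0.989% over the duct arrays. Over the duct arrays the other carriers came close, with 1.14% of probes above Ttr, 1.56% above Apod and 2.43% above Ptgds.

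Ptgds was the exception and lay below stroma in both structures. Its log2 ratios ran from -1.80 through a median of -1.40 to -0.96 in terminal end buds, and from -1.92 through a median of -0.85 to -0.31 in ducts. All 12 arrays were negative and the groups overlapped over most of their range, with the lowest value of all on duct replicate 2. The means were -1.39 ± 0.36 (SD, n = 6) and -0.97 ± 0.54 (SD, n = 6), so that stroma exceeded terminal end buds 2.62-fold and ducts 1.95-fold. The difference of duct over terminal end bud was 0.42 (SE 0.23), within the spread of the duct arrays. Its sign was not stable, since terminal end bud minus duct was 0.12 instead of -0.42 under quantile normalization of the arrays.

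**Figure D1:**
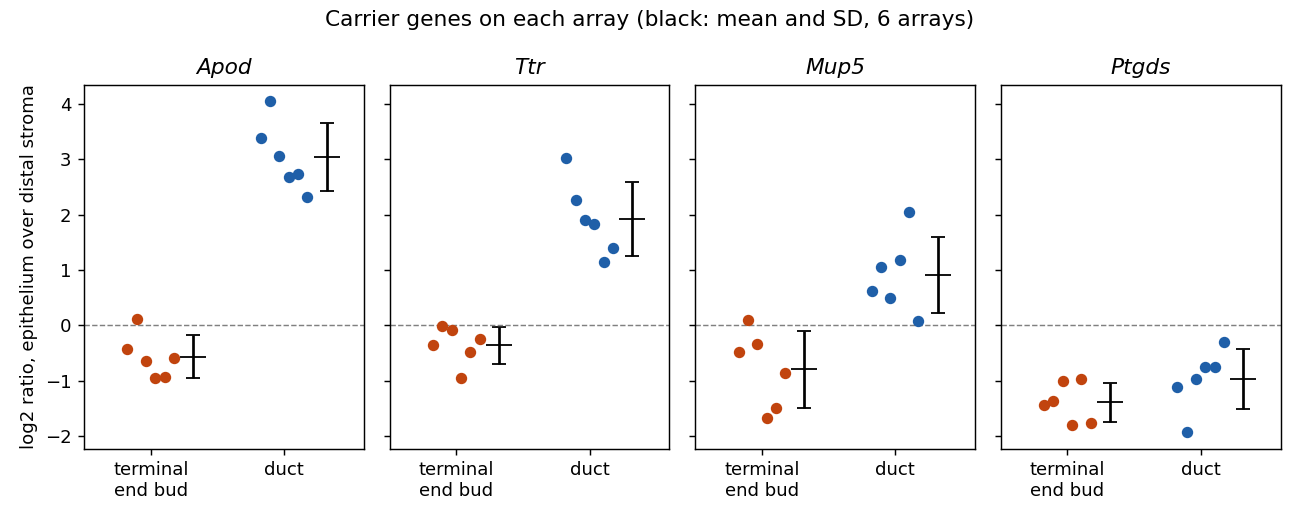
Log2 ratio of epithelium over distal stroma (vertical axis) for Apod, Ttr, Mup5 and Ptgds on each of 6 terminal end bud arrays (orange) and 6 duct arrays (blue). Black marks give the mean and SD. Apod and Ttr separate fully, Mup5 meets at the edge, and Ptgds overlaps below 0.

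The array titles end in numbers that place each terminal end bud array next to a duct array, from 190 and 191 to 203 and 202. What these numbers stand for is not given in the labels. Apod was higher in the duct array of every such pair, by 2.90 to 3.93, and Ttr by 1.63 to 3.36. Mup5 was higher in the duct array by 0.83 to 1.11 in 4 pairs, and by 2.86 and 3.53 in the pairs 198 with 199 and 200 with 201. Ptgds differed by -0.55 to 1.45, with 5 of 6 pairs above 0. The 2 pairs with the lowest numbers also stood apart in level. With arrays up to 193 alone, the duct mean was 3.71 for Apod, 2.64 for Ttr and -1.52 for Ptgds, and with arrays from 196 on it was 2.70, 1.57 and -0.69. The difference of terminal end bud minus duct was -3.86 and -3.47 for Apod in these subsets, -2.82 and -2.01 for Ttr, -1.04 and -2.04 for Mup5, and 0.12 and -0.69 for Ptgds.

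**Figure D2:**
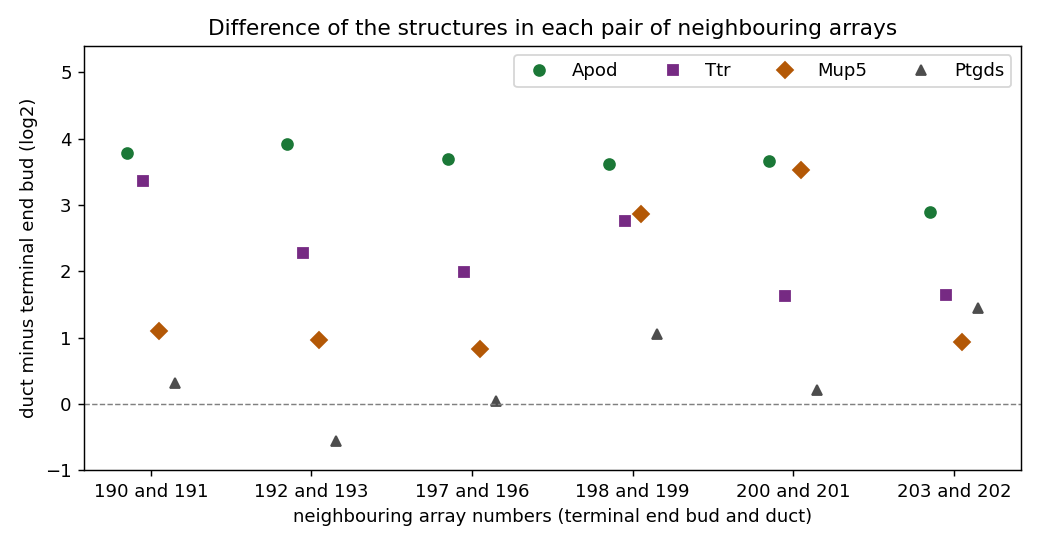
Duct minus terminal end bud on the log2 scale (vertical axis) for each pair of neighbouring array numbers (horizontal axis), with 1 marker shape per gene. Apod stays between 2.90 and 3.93, while Mup5 reaches 3.53 in only 1 pair and Ptgds lies on both sides of 0.

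Within the ducts, Apod and Ptgds ran against each other from array to array. Apod was 3.37, 4.04, 3.06, 2.68, 2.73 and 2.31 on duct replicates 1 to 6. Ptgds was -1.12, -1.92, -0.96, -0.74, -0.75 and -0.31 on the same arrays. The array with the most Apod had the least Ptgds, and the reverse. Pearson's r was -0.987 (n = 6, two-sided, exact permutation p = 0.00139, which is the lower limit with 6 arrays, and 0.0167 after Benjamini-Hochberg adjustment over 12 relations). Spearman's rho was -1 (exact permutation p = 0.00278, adjusted 0.0333). Without the 2 arrays farthest from the median of Apod, r was -0.997 over the remaining 4. The arrays up to 193 held the 2 highest Apod and the 2 lowest Ptgds values, and with 2 arrays they give no coefficient. Over the 4 duct arrays from 196 on, r was -0.979, given as a description because the arrays are few. Along the array numbers from 191 to 202, Apod tended to fall and Ptgds to rise, also among the arrays from 196 on. The permutation takes the arrays as interchangeable, so its p-values do not account for such an order. A shared trend with array number was not tested. Of 17459 probes with all values, 12, Ptgds included, had a coefficient with Apod as low as this one or lower, which is 0.0687%. On the terminal end bud arrays r was -0.03 (exact permutation p = 0.967, rho 0.09, exact permutation p = 0.919), and the difference between the structures was not tested.

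The 12 relations were those of the 6 gene pairs in each structure. Mup5 and Ttr in terminal end buds had r of 0.894 (exact permutation p = 0.0125, adjusted 0.0611) and rho of 0.943 (exact permutation p = 0.0167, adjusted 0.1), with r of 0.734 without the 2 farthest arrays. Mup5 and Apod had r of 0.893 there (exact permutation p = 0.0153, adjusted 0.0611) and rho of 0.829 (exact permutation p = 0.0583, adjusted 0.206), with r of 0.806 without the farthest arrays. Neither held after adjustment, and in ducts the same 2 relations had r of -0.32 (exact permutation p = 0.547) and 0.1 (exact permutation p = 0.851).

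**Figure D3:**
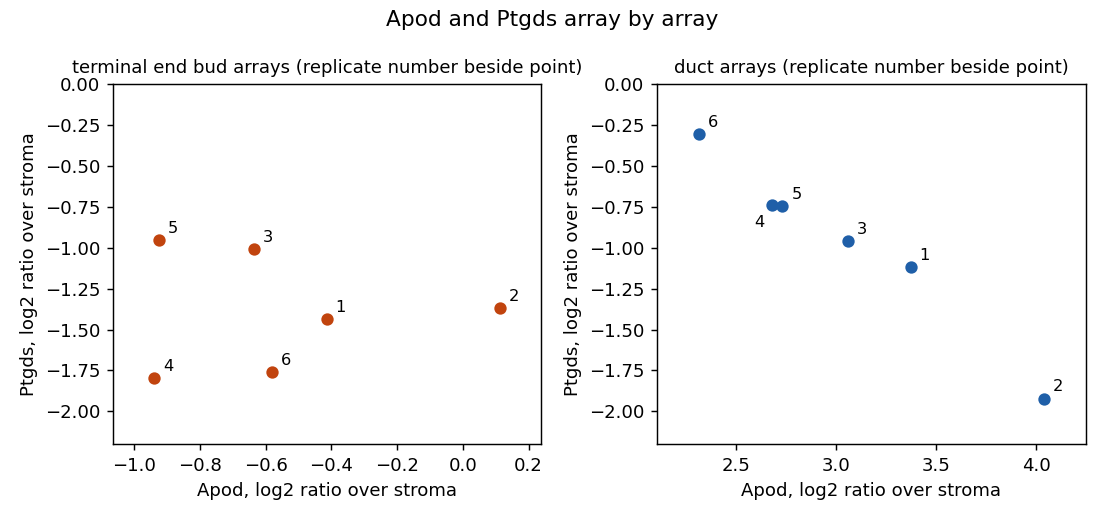
Log2 ratios of Apod (horizontal axis) and Ptgds (vertical axis) over distal stroma, with 1 point per array and its replicate number, for 6 terminal end bud arrays (left) and 6 duct arrays (right). The duct arrays descend from replicate 6 to replicate 2 (r = -0.987), and the terminal end bud arrays show no such order (r = -0.03).

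The genes most like each carrier were found by the root mean square difference of log2 ratios over the 12 arrays, 1 probe a gene. For Apod the nearest was Ttr (0.88), followed by Btn1a1 (1.0), the butyrophilin of the milk fat globule membrane, and Myh11 (1.01), smooth muscle myosin. For Ttr they were Lao1 (0.54), an amino acid oxidase found in milk, Sfrp2 (0.58), a secreted Wnt modulator, and Igfbp5 (0.70), an IGF binding protein. For Mup5 the nearest was Mup3 (0.29), followed by Osmr (0.55), the oncostatin M receptor, and Mmp3 (0.56), a matrix protease. For Ptgds they were Ndufc1 (0.25), Fh1 (0.27) and Ndufa11 (0.27), which serve mitochondrial respiration and the citric acid cycle. Btn1a1 was at 0.72 ± 0.06 (SD, n = 6) in terminal end buds and 2.68 ± 0.32 (SD, n = 6) in ducts, while Ndufc1 was below stroma in both, at -1.28 ± 0.33 and -1.03 ± 0.39 (SD, n = 6 each).

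Mup3 came from another probe of the same gene cluster, and its array values ran beside those of Mup5. In terminal end buds it lay between -1.08 and 0.41, and in ducts between -0.19 and 1.71, with its highest value on duct replicate 5 as for Mup5. The 2 probes differed by at most 0.59 on any array. Major urinary protein genes are nearly identical in sequence, so which of them hybridised to either probe is uncertain, and they are not independent measurements. Mup3 averaged -0.52 ± 0.55 (SD, n = 6) in terminal end buds and 0.82 ± 0.68 (SD, n = 6) in ducts. These means are given without a test, as for Mup5.

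The other lipocalins lay on both sides of stroma, and Rbp4 and Orm3 fell in terminal end buds. Measured were 12 of 26, and by limma 1 of them was called above stroma and 2 below it in terminal end buds, against 1 above and 3 below in ducts. The share of all probes called was 23.2% above and 20.4% below stroma in terminal end buds, and 16.0% above and 12.2% below in ducts. Between the structures 3 of the 12 were higher in ducts and 0 in terminal end buds by limma, or 1 in terminal end buds at an unadjusted p of 0.05. Over all probes the shares were 10.4% and 8.32%. The 3 were Rbp4, Orm3 and Mup3, and Mup3 was also the 1 called above stroma in ducts, so it adds nothing independent of Mup5. The median of terminal end bud minus duct was 0.09 for the list and 0 for all probes. Rbp4, the plasma carrier of retinol and the binding partner of Ttr, fell to -1.29 (SE 0.10, adjusted p = 1.22e-07) in terminal end buds and -0.50 (SE 0.10, adjusted p = 0.00199) in ducts. Orm3, an acute phase lipocalin, fell to -1.20 (SE 0.11, adjusted p = 6.63e-07) in terminal end buds. In ducts it was at -0.32, a call that ended when 1 array was left out, for 8 of the 12 arrays. The higher ratio of Rbp4 in ducts was 0.80 (SE 0.14, adjusted p = 0.00135) and 0.33 under quantile normalization (adjusted p = 0.342).

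Receptors of these carriers and of related lipid carriers lay on both sides of stroma. Of 12 measured, 4 rose and 1 fell in terminal end buds, and 2 rose and 2 fell in ducts. Over all probes 23.2% rose and 20.4% fell in terminal end buds, and 16.0% and 12.2% in ducts. Between the structures 2 were higher in terminal end buds and 0 in ducts by limma, or 1 in ducts at an unadjusted p of 0.05. Over all probes the shares were 8.32% and 10.4%. The list was not tested against other genes. Stra6, the receptor that takes up retinol from its carrier, was higher than stroma by 2.20 (SE 0.10, adjusted p = 7.29e-10) in terminal end buds and by 0.62 (SE 0.10, adjusted p = 0.000253) in ducts, or 0.36 (adjusted p = 0.0828) with arrays up to 193 alone. Terminal end buds thus exceeded ducts by 1.58 (SE 0.14, adjusted p = 6.73e-06). Lrp2, another receptor of the list, was at 0.032 in terminal end buds and 0.025 in ducts and did not pass. Slc22a17, a receptor for Lcn2, was at 1.16 (SE 0.28, adjusted p = 0.00319) in terminal end buds, with a wide SD of 0.94 (n = 6). Lsr, a lipoprotein receptor and junction protein, was at 3.04 and 2.32 (adjusted p = 1.23e-10 and 2.97e-09). The prostaglandin D receptors Ptgdr and Ptgdr2 had ratios between -0.16 and 0.00 and did not pass the test, and Bsg, a proposed Apod receptor, was at 0.11 and -0.07.

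Of 19 genes of prostaglandin synthesis and response, 5 rose and 5 fell in terminal end buds, and 6 rose and 2 fell in ducts. The shares of all probes were 23.2% and 20.4% in terminal end buds and 16.0% and 12.2% in ducts. Ptgis, the prostacyclin synthase, was at 2.14 (SE 0.09, adjusted p = 6.99e-10) in terminal end buds and 1.05 (SE 0.09, adjusted p = 1.8e-06) in ducts. Slco2a1, a prostaglandin transporter, was at 2.10 (SE 0.14, adjusted p = 3.61e-08) and 0.38 (SE 0.14, adjusted p = 0.0622). Both were higher in terminal end buds than in ducts, by 1.09 and 1.71 (adjusted p = 7.37e-05 and 7.1e-05). Hpgds, the other prostaglandin D synthase, was at -0.69 and 0.05 and passed in neither. Between the structures 4 genes of the list were higher in terminal end buds and 3 in ducts, against 8.32% and 10.4% of all probes.

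Among fatty acid and retinoid binding proteins inside the cell, 2 of 16 measured rose and 8 fell in terminal end buds, and 2 rose and 6 fell in ducts. Over all probes 23.2% rose and 20.4% fell in the former and 16.0% and 12.2% in the latter. Fabp3 and Fabp4, fatty acid binders of muscle and of fat, were at -2.97 and -2.13 (SE 0.19 each) in terminal end buds, with adjusted p of 2.2e-08 and 3.87e-07. In ducts they were at -1.72 and -0.82 (adjusted p = 1.6e-05 and 0.00429). Crabp1, which binds retinoic acid, rose by 2.24 (SE 0.18, adjusted p = 1.61e-07) and 1.10 (SE 0.18, adjusted p = 0.00038). Between the structures 5 of the list were higher in ducts and 1, Crabp1, in terminal end buds (by 1.14, adjusted p = 0.00581), against 10.4% and 8.32% of all probes. The list was not tested against other genes. The higher duct values of Fabp3 and Fabp4 no longer passed under quantile normalization (adjusted p = 0.393 and 0.229).

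Of 17 apolipoproteins and lipoprotein enzymes, 3 rose and 4 fell in terminal end buds and 2 rose and 2 fell in ducts. The shares of all probes were 23.2% and 20.4% in terminal end buds and 16.0% and 12.2% in ducts. Clu (clusterin, also called apolipoprotein J) was at 3.05 (SE 0.15, adjusted p = 2.37e-09) and 2.35 (SE 0.15, adjusted p = 1.12e-07). Apoc1 was at -1.53 and -0.90 (adjusted p = 1.36e-07 and 7.3e-05). Unlike Apod, Clu was high in both structures, and the test of the 2 structures gave 0.70 more in terminal end buds (adjusted p = 0.0371), a call that did not hold under quantile normalization (adjusted p = 0.165) or when 1 array was left out, for 7 of the 12 arrays.

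Of 18 genes that handle thyroid hormone and retinoids, 4 rose and 4 fell in terminal end buds and 2 rose and 2 fell in ducts. The shares of all probes were 23.2% and 20.4% in terminal end buds and 16.0% and 12.2% in ducts. Dio2, which activates thyroxine, was at -1.41 (SE 0.28, adjusted p = 0.00087) in terminal end buds and -0.72 (adjusted p = 0.0732) in ducts. With arrays up to 193 against those from 196 on as a term, the duct value passed (adjusted p = 0.000536). Aldh1a1, which makes retinoic acid, fell to -1.28 (SE 0.09, adjusted p = 2.72e-08) and -0.53 (SE 0.09, adjusted p = 0.000334).

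Of 15 steroid receptors and steroid carriers, 3 rose and 4 fell in terminal end buds, and 3 rose and 2 fell in ducts. The shares of all probes were 23.2% and 20.4% in terminal end buds and 16.0% and 12.2% in ducts. Hsd11b1, which regenerates active glucocorticoid, was at -1.88 (SE 0.07, adjusted p = 2.46e-10) and -0.34 (SE 0.07, adjusted p = 0.00236), so that ducts exceeded terminal end buds by 1.54 (SE 0.10, adjusted p = 8.71e-07). Pgr, the progesterone receptor, was at 0.66 and 0.79 (SE 0.16 each, adjusted p = 0.00309 and 0.00161), and the structures did not differ by the test (difference 0.13, SE 0.22, adjusted p = 0.752).

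Of 20 secreted defence and iron proteins, 10 rose and 5 fell in terminal end buds, where 23.2% and 20.4% of all probes did, and 8 rose and 1 fell in ducts, where 16.0% and 12.2% of all probes did. No difference between this list and the others was tested. Ltf, the iron binder lactoferrin, was at 1.76 (SE 0.25, adjusted p = 3.97e-05) in terminal end buds and 3.44 (SE 0.25, adjusted p = 2.95e-07) in ducts. Its difference of 1.68 in favour of ducts (SE 0.35, adjusted p = 0.00393) ran in the direction of Apod and Ttr. On arrays up to 193 alone, 2 per structure, terminal end bud minus duct was -1.50 for Ltf (adjusted p = 0.16 by limma). Trf, transferrin, was at 0.91 and 2.03 (SE 0.25 each, adjusted p = 0.0088 and 3.7e-05), and its excess of 1.13 in ducts (adjusted p = 0.0399) no longer passed when 1 array was left out, for 8 of the 12 arrays. Slpi, a secreted protease inhibitor, was at 3.17 and 2.46 (SE 0.23 each). In all, 129 genes of these 8 lists were measured, of which 32 rose and 33 fell in terminal end buds and 26 rose and 20 fell in ducts. Between the structures 13 were higher in terminal end buds and 19 in ducts, against 8.32% and 10.4% of all probes.

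**Figure D4:**
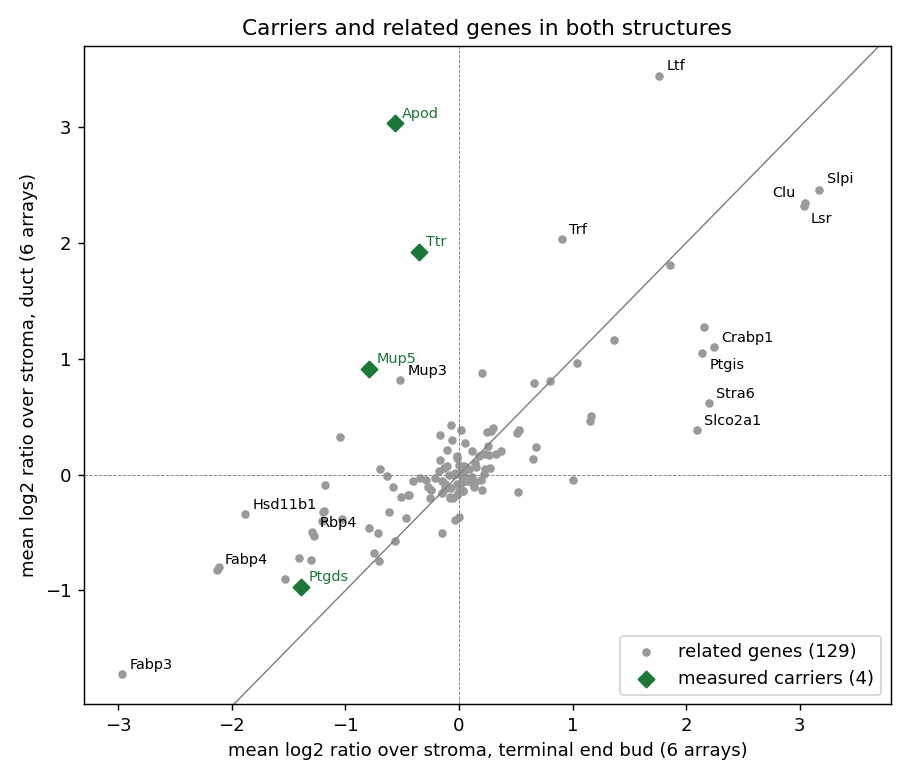
Mean log2 ratio over stroma in terminal end buds (horizontal axis) and ducts (vertical axis), 6 arrays each, for 4 carriers (green diamonds) and 129 related genes (grey points), with the line of equal ratios. Apod, Ttr and Mup5 lie left of 0 and above it, and Ltf and Trf lie above the line at positive ratios in both.

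Markers of other tissues were read on the same arrays as the mean log2 ratio over each list. Over all probes 23.2% rose and 20.4% fell in terminal end buds, and 16.0% and 12.2% in ducts. Between the structures 10.4% were higher in ducts and 8.32% in terminal end buds. All 10 luminal genes rose in both structures, and Krt18 was at 5.19 ± 0.36 and 4.98 ± 0.58 (SD, n = 6 each). Adipocyte markers (9 measured) lay between -1.47 and -0.80 on terminal end bud arrays and between -0.50 and -0.33 on duct arrays, so ducts were nearer to stroma, and 8 of the 9 fell in terminal end buds but 3 in ducts. Endothelial markers (8 measured) lay between -1.46 and -1.03 and between -0.66 and -0.22, with 8 and 6 of them fallen. Fibroblast markers (10 measured) lay between -0.20 and 0.57 on terminal end bud arrays and were above 0 on every duct array, between 0.06 and 1.01. Of them 3 rose and 1 fell in terminal end buds and 5 rose in ducts. The matrix genes Col3a1, Mfap5 and Dpt were higher in ducts than in terminal end buds, by 1.22, 0.90 and 1.43 (adjusted p = 0.00328, 0.0117 and 0.00091), and Pdgfrb was lower by 0.79 (adjusted p = 1.71e-05). These lists moved with the difference between the structures, and their part in it was not tested. Secretory luminal genes (9 measured) lay between 1.36 and 2.03 in terminal end buds and between 2.63 and 3.55 in ducts, and 5 of them were higher in ducts. Basal genes (9 measured) lay between 1.21 and 1.80 and between 1.69 and 2.32.

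Ttr and Mup genes are best known from liver, and Mup genes also from salivary and lacrimal glands. Among 10 genes of liver plasma proteins, 4 were called above stroma and 1 below it in terminal end buds, and 1 above and 1 below in ducts. The shares of all probes were 23.2% and 20.4% in terminal end buds and 16.0% and 12.2% in ducts. Fgb, a fibrinogen chain, was at 1.04 in terminal end buds (adjusted p = 0.000319) and 0.49 in ducts (adjusted p = 0.0627). Hp, haptoglobin, was at -1.62 and -0.51 (adjusted p = 8.69e-09 and 0.00108). Alb was at -0.09 in terminal end buds and 0.00 in ducts, and Ahsg at 0.15 and 0.11. Fgg, another fibrinogen chain, was at 0.66 in terminal end buds (adjusted p = 0.0466) and 2.45 in ducts (adjusted p = 7.15e-06). Between the structures Hp and Fgg were higher in ducts by limma, by 1.115 and 1.789 (adjusted p = 7.71e-05 and 0.00265). In that comparison 2 of the 10 were higher in ducts and 1 in terminal end buds, against 10.4% and 8.32% of all probes. The list mean, in which Fgb and Hp have opposite signs, was -0.02 to 0.09 in terminal end buds and 0.11 to 0.49 in ducts, and its part in the carriers' difference was not tested. Of 9 salivary or lacrimal genes, 0 rose in either structure by limma (0 in terminal end buds and 1 in ducts at an unadjusted p of 0.05), and the list mean lay between -0.12 and 0.07 on all 12 arrays. Between the structures 1 of the 9, Amy1, was higher in ducts by limma, by 0.70 (adjusted p = 0.00475). Nerve markers, of interest because glial cells express Apod, had a mean between -0.43 and -0.20 in terminal end buds and between -0.18 and 0.00 in ducts, with 0 of 7 risen in ducts by limma (1 at an unadjusted p of 0.05). Of the 7, 3 fell in terminal end buds and 1 in ducts. Between the structures 1 of the 7, Pmp22, was higher in ducts by limma, by 1.145 (adjusted p = 0.000196), against 10.4% of all probes.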

How the data were processed

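The authors deposited 1 table of normalized log ratios of Cy5 over Cy3 for 12 arrays with 2 colours, read here as log2 of epithelium over stroma; how the arrays were scanned, background-corrected and normalized was not given in the sources used here. Direction follows the dyes of the labels, and no swap of dyes is recorded, so dye bias of single probes stays in. Array medians lay between 0.01 and 0.023. SDs over probes lay between 0.535 and 0.635 on terminal end bud arrays and between 0.38 and 0.484 on duct arrays. Ratios over the whole table thus spread less on every duct array than on any terminal end bud array. The part of this spread in the differences between the structures was not tested. Of 17589 probes, 14136 had 1 gene symbol, 13 several and 3440 none here, and 129 had a missing value. Values were used as deposited.

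A single limma 3.58.1 model (R 4.3.3; lmFit, eBayes) gave each structure's mean against 0 and their difference over all probes, two-sided, with Benjamini-Hochberg adjustment and a threshold of 0.05. Stroma was the reference on every array; whether 1 stroma RNA served all arrays is not stated. It was treated as 1 control sample, and if it was one, its own variation is not in the test. The fit was tested on simulated data first.

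The carriers and the lists of related genes and markers were chosen with earlier results of these data known. Of 313 list entries 249 were measured, 1 probe a gene (most values, then first); of the related genes, 4 had several probes, none called in opposite directions. Named were all carriers and the 3 genes most like each carrier. Up to 4 called genes per related list with the largest ratio made up the 32 named related genes. The text describes only some of these, and not always the largest. Pgr is given, for example, while Nr3c1 and Vdr had larger ratios and are not. Receptors and others that did not pass, marker genes and Fgg were picked after their values were seen. Replicate numbers follow record order. The alternatives tried were other scalings, filters, variance models, array weights, array number as block or term, each array left out, and, added after seeing the data, arrays numbered up to 193 or from 196 on alone.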

Additional observations from a re-analysis of the deposited data

Results flagged for a closer look

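Ttr was below stroma on all 6 terminal end bud arrays and above it on all 6 duct arrays, with terminal end bud minus duct at -2.28. It was flagged because every array of one structure lay on the opposite side of stroma from every array of the other. How many of all probes do the same was not counted. This difference was not tested, since the gene was chosen on these values. No array of any carrier stood apart from its group by Dixon's criterion.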

How the results depend on the processing

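Over 23 alternative settings, 269 of 276 values of the carriers moved by less than 1 SD of the arrays. Many of these values could not move. The robust trended variance, the block or term by array number and the filter on missing values left every carrier mean unchanged. Averaging probes cannot move genes with 1 probe. Leaving out an array of 1 structure left the ratios of the other over stroma unchanged. The count is therefore no measure of stability. Ptgds between the structures turned sign under 2 of them, to 0.12 (terminal end bud minus duct) under quantile normalization and to 0.12 with arrays up to 193 alone. The arrays up to 193, 2 per structure, moved the most: Apod was at -0.15 in terminal end buds and 3.71 in ducts, Ptgds at -1.52 in ducts, and Ttr at 2.64 in ducts and -2.82 between the structures. With them 4663, 2180 and 1023 probes were called in terminal end bud against stroma, duct against stroma and terminal end bud against duct, where 7674, 4952 and 3295 were called on all arrays, and 28 related genes (46 on all arrays) in ducts and 16 (32 on all) between the structures; fewer arrays were fitted. Quantile normalization left 21 related genes called between the structures. Leaving out 1 array kept terminal end bud minus duct between -3.74 and -3.40 for Apod, -2.43 and -2.06 for Ttr, -1.88 and -1.48 for Mup5, and -0.61 and -0.29 for Ptgds. Of 78 calls of the 32 named related genes, 9 were lost under quantile normalization and 7 under a common median absolute deviation. All 9 and 6 of the 7 were among the 21 calls between the structures. With arrays up to 193 alone 25 were lost, and with those from 196 on alone 8. None of the 78 turned sign under any of the 22 settings run on them. For marker genes outside these 32, such as Hp, Fgg, Amy1, Col3a1, Mfap5, Dpt and Pdgfrb, no results under the other settings are given. Neighbouring array numbers as a block lost 0. Signal over background was not used here, so how dim a probe was is not known.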

Other observations

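The probes of Apod and Ttr carry the neighbouring numbers 397 and 398 in the table. The probes on either side did not show their pattern: 396 (Glb1) was at 0.37 in terminal end buds and 0.03 in ducts, and 399 (Bnip3) at -0.80 and -0.84. No source used here says how probe numbers relate to places on the array.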
